A study of Mus musculus with 2 samples.

Results

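The insulin-like growth factor (IGF) system was examined in mouse embryonic fibroblasts through 9 genes. They are the binding protein genes Igfbp1 to Igfbp7, the ligand gene Igf1 and the receptor gene Igf1r. Every probe set that the array's annotation pairs with just 1 of these symbols was taken, which gave 25 probe sets of the 34945 with a single symbol. RNA came from cultures of wildtype and of Malat1 knock-out C57BL/6 embryos of day 13.5, kept for 2 weeks with no treatment, and each genotype was hybridized to 1 Affymetrix Mouse430_2 array. Malat1 is a nuclear long noncoding RNA. The labels do not say how many embryos were pooled, how the allele was made or which sex they had.

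IGF1 is a secreted growth factor that binds a receptor tyrosine kinase, IGF1R, and through docking proteins switches on the PI3K-Akt and MAP kinase cascades. Most IGF outside the cell is held by binding proteins (IGFBPs), which keep the ligand from its receptor or store it in the matrix until proteases cut them. Fibroblasts are a rich source of IGFBPs, and several of these proteins also accumulate in the medium of ageing cultures.

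Values are log2 signals, so a difference of 1 is a doubling of signal, and all differences are knock-out minus wildtype. A floor was set for each array at the median signal of the 45037 probe sets that are no controls, 5.39 in the wildtype and 5.44 in the knock-out, and a probe set was taken as measured where it reached that floor. No detection calls were used here. With 1 array per genotype there is no replicate check and no p-value, and a fixed size of 1.5-fold (0.585 on the log2 scale) stands in for a test. The nearest available yardstick is how far apart the probe sets of the same gene lie, whose differences had a pooled SD of 0.199 over 4881 genes with at least 2 measured probe sets. These share an RNA sample, so that SD leaves out the variation between cultures. Signals of different probe sets depend on their own probes, so no order of level between genes is given.

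Some facts of the arrays stand beside every result. The brightest Malat1 probe set read 9.80 on the wildtype array and 4.53 on the knock-out array, below the floor. Xist was measured on the knock-out array alone and the Y-linked Uty, Kdm5d and Eif2s3y on the wildtype array alone. By these transcripts the wildtype RNA read as male and the knock-out RNA as female. Genotype and sex therefore cannot be told apart for any gene, Igfbp4 and Igfbp5 included. The 18 hybridization spike-in probe sets all read lower on the knock-out array (median -0.23), while the 3 for 18S ribosomal RNA were higher (median 0.58). The part of these in the results below was not tested. Fewer cells of a type and less RNA per cell cannot be told apart in such cultures.

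Of the 25 probe sets, 24 were measured on both arrays, and the remaining one, for Igfbp1, on neither. Igfbp4 stood out, with lower signal in the knock-out at each of its 6 probe sets, and one of the pair for Igfbp5 was lower by a like amount. Of the 24, 7 were at least 1.5-fold lower on the knock-out array (6 of Igfbp4 and 1 of Igfbp5), where 2.57% of all 21610 measured probe sets were. None was at least 1.5-fold higher, where 0.722% of all measured probe sets were, and none reached 2-fold in either direction. Of all measured probe sets past 1.5-fold 78.1% were lower, a share that was 56.2% after quantile normalization, where 5 members were at least 1.5-fold lower and 0 higher. In all 18 of the 24 were lower, with a median difference of -0.25, beside 61.4% lower and a median of -0.06 over all measured probe sets. Without Igfbp4 the median over the other 18 probe sets was -0.13, and 12 of them were lower.

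**Figure D1:**
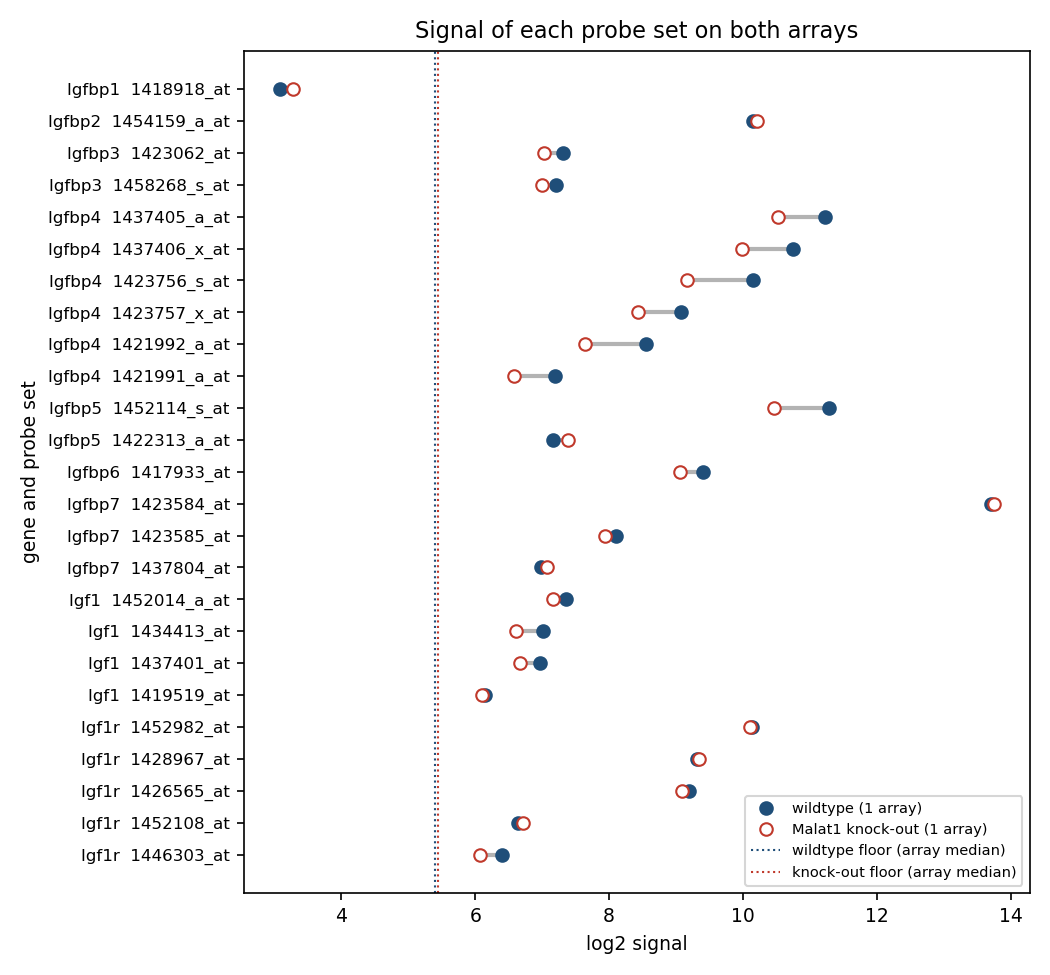
Log2 signal (x axis) of each of the 25 probe sets (y axis) on the wildtype array (filled points) and the Malat1 knock-out array (open points), with dotted lines at the floor of each array. The widest gaps are those of the 6 Igfbp4 probe sets and of the brighter Igfbp5 probe set, and Igfbp1 lies left of both floors.

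The ligand was compared first. Igf1 has 4 probe sets, all of them lower on the knock-out array in the values as deposited. Probe set 1452014_a_at read 7.36 in the wildtype and 7.16 in the knock-out. Probe set 1434413_at read 7.01 and 6.61, the largest difference of the 4 at -0.40 (1.32-fold). These gaps are small beside that of Igfbp4. Probe set 1437401_at read 6.97 and 6.67, a difference of -0.31. The dimmest, 1419519_at, read 6.15 and 6.11, a difference of -0.04 that became 0.02 once the arrays were centred on each other by their median. No Igf1 probe set passed 1.5-fold, and their median was -0.25.

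Igf1r, the tyrosine kinase receptor that IGF1 and IGF2 both activate, had nearly equal signal on the arrays. Its brightest probe set, 1452982_at, read 10.13 in the wildtype and 10.11 in the knock-out. Probe set 1428967_at read 9.32 and 9.34, and 1426565_at 9.19 and 9.09. At these 3 the arrays thus differed by -0.10 at most. Of the dimmer ones, 1452108_at read 6.64 and 6.71, while 1446303_at read 6.41 and 6.08, the lone Igf1r difference of some size at -0.33. The median of the 5 was -0.02, with 3 lower and 2 higher, and none passed 1.5-fold. Centring the arrays by their median turned the sign of 1452982_at (0.04), as did quantile normalization (0.04) and loess centring (0.03).

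Igfbp4, which encodes a secreted inhibitor of IGF action that the protease PAPP-A cuts, had every probe set past 1.5-fold in the values as deposited. No other member did. Its 6 probe sets come in pairs from 3 source sequences of the array design. The first pair is the brightest: 1437405_a_at read 11.23 in the wildtype and 10.52 in the knock-out, and 1437406_x_at read 10.75 and 9.99. Their differences were -0.71 (1.63-fold) and -0.77 (1.70-fold). In the second pair 1423756_s_at read 10.16 and 9.16, the largest difference of any member at -0.99 (1.99-fold). Its partner 1423757_x_at read 9.08 and 8.43, a difference of -0.65 (1.57-fold). In the third pair 1421992_a_at read 8.55 and 7.64, which is -0.91 (1.88-fold). The dimmest, 1421991_a_at, read 7.19 and 6.59, which is -0.61 (1.52-fold). Each of the 6 was lower on the knock-out array, across signals from near 7 to above 11, and their differences had an SD of 0.152. The suffix of 1437406_x_at and 1423757_x_at marks possible cross-hybridization, and that of 1423756_s_at a probe set that can match more than one transcript. The others, 1437405_a_at, 1421992_a_at and 1421991_a_at, differed by -0.71, -0.91 and -0.61.

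Agreement of this kind was counted over all genes by a rule outside the plan, chosen with the Igfbp4 values known. Of 1921 genes with at least 3 measured probe sets, 3 (0.156%) had every one of them at least 1.5-fold lower in the values as deposited. Besides Igfbp4 these were Ang, which encodes the ribonuclease angiogenin (3 probe sets, -1.02 to -0.89), and Il1rn, the interleukin-1 receptor antagonist (3 probe sets, -1.23 to -0.67), both named after their values were seen. Represented by its brightest probe set, Igfbp4 was among the 83 lowest of 11294 measured genes (0.735%). Under quantile normalization the 6 Igfbp4 differences stayed negative, and the smaller 2 no longer reached 1.5-fold (-0.54 and -0.51). The same held after loess centring (-0.55 and -0.53), and with median centring 1421991_a_at fell short at -0.55. Under none of these scalings did Igfbp4 have every probe set at least 1.5-fold lower. The count of such genes was not redone under them.

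The Igfbp5 signal depended on which probe set was read. IGFBP5 is a matrix-associated binding protein made by connective tissue cells. Its brighter probe set, 1452114_s_at, read 11.29 in the wildtype and 10.46 in the knock-out, 1.77-fold lower. The dimmer, 1422313_a_at, read 7.16 and 7.39, a difference of 0.23 in the other direction. The pair therefore differed by 1.06 in their log2 differences, and only 31 of the 4881 genes with at least 2 measured probe sets (0.635%) had a range as wide, against a median range of 0.20. The opposite signs held under all 3 other scalings. The suffix of the brighter one marks a probe set that can match more than one transcript, and the Igfbp5 transcripts that each of the pair reads were not examined.

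**Figure D2:**
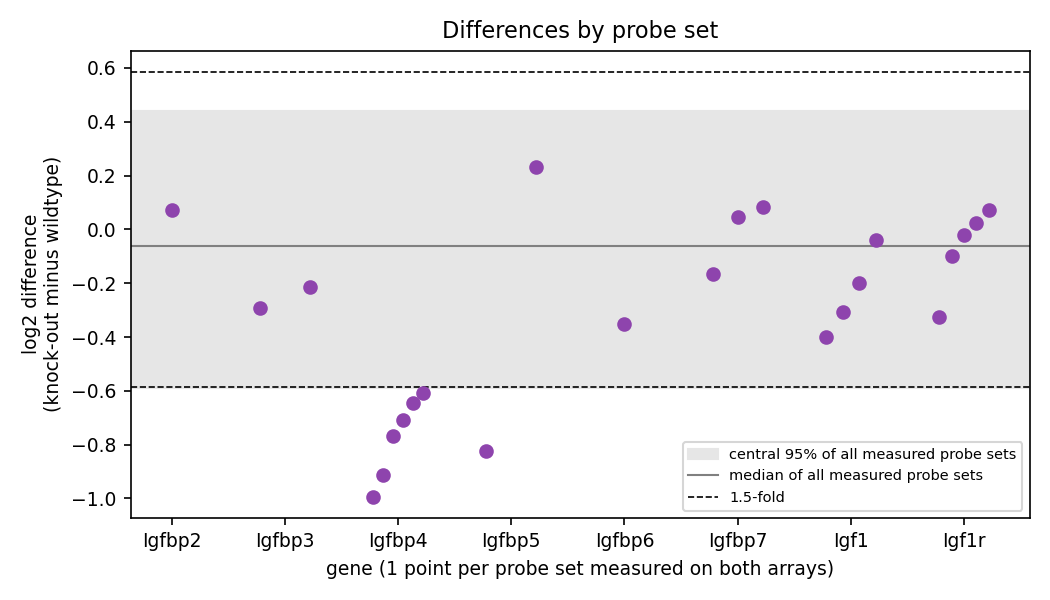
Log2 difference, knock-out minus wildtype (y axis), of each probe set measured on both arrays, by gene (x axis), against the central 95% of all measured probe sets (grey band, -0.59 to 0.44). The 6 Igfbp4 points and the lower Igfbp5 point lie below the band and the dashed line of 1.5-fold, while the second Igfbp5 point lies above 0.

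The 250 bases before the transcription start are shown for Igfbp4 and Igfbp5 since these were the 2 members with a probe set past 1.5-fold. They come from RefSeq's GRCm38.p6 promoter table, read 5′ to 3′ on the coding strand, with the window of Igfbp4 at chr11:99040994-99041243 (plus strand) and that of Igfbp5 at chr1:72874866-72875115 (minus strand). All 9 members had an entry in the table. Capitals mark a match on either strand to the TATA box (TATAAA), the CCAAT box, the GC box (GGGCGG), a forkhead site (TGTTTAC) or the E box (CACGTG).
Igfbp4: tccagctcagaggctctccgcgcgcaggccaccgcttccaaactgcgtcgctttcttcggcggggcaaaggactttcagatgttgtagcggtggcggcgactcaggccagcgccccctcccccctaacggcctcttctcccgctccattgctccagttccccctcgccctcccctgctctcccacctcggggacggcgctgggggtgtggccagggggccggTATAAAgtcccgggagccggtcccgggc
Igfbp5: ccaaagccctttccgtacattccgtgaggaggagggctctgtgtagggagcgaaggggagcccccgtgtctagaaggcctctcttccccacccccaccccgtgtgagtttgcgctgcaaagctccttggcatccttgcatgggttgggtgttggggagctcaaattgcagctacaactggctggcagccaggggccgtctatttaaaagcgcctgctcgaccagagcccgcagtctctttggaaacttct
The Igfbp4 window held a TATAAA, as do 12.4% of all 32851 windows in the table, and no match to the other motifs. The Igfbp5 window held none of these 5 motifs as spelled here. Of all windows, 33.9% hold CCAAT, 32.7% GGGCGG, 3.17% TGTTTAC and 6.02% CACGTG. G and C made up 69.2% of the Igfbp4 window and 58.8% of the Igfbp5 window, with a median of 52.4% over all windows. A match is a description of letters and shows no binding.

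Brightness gave another view of both genes. Among the 3549 measured probe sets with a mean log2 signal of 10 or more, a mark chosen after the values were seen, 0.704% were at least 1.5-fold lower on the knock-out array. The members have 6 such bright probe sets, and 3 of them were at least 1.5-fold lower, 2 for Igfbp4 and 1 for Igfbp5. The other 3 belong to Igfbp2, Igfbp7 and Igf1r and differed by 0.07, 0.04 and -0.02. Bright members thus held differences near 0 as well as differences past 1.5-fold.

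**Figure D3:**
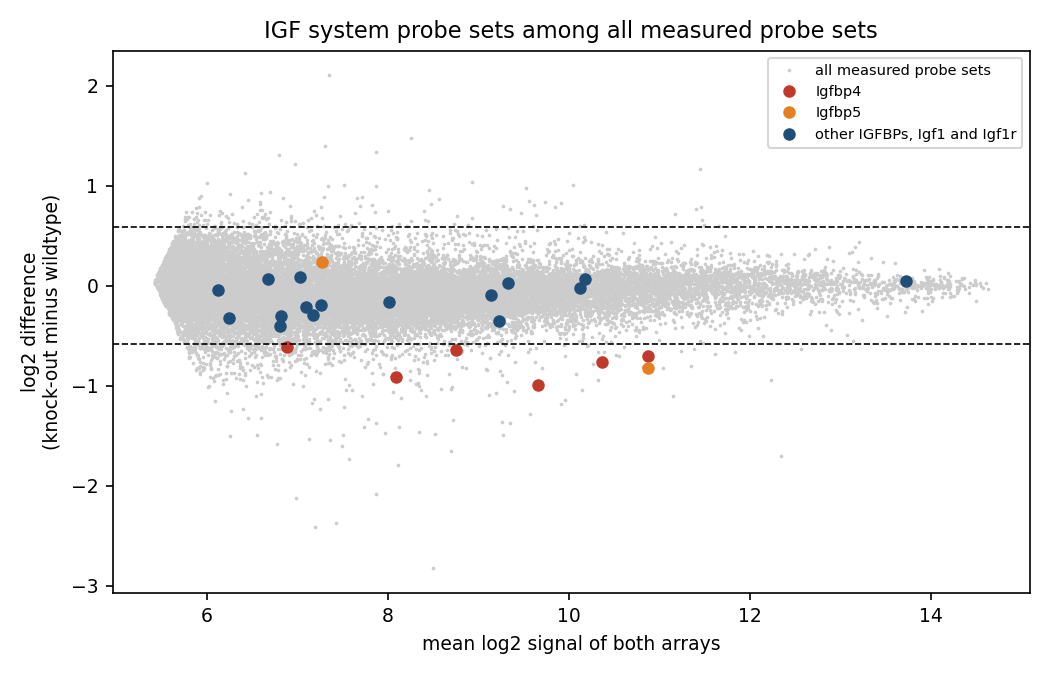
Log2 difference, knock-out minus wildtype (y axis), against the mean log2 signal of both arrays (x axis) for all 21610 measured probe sets (grey) and the 24 measured members (coloured), with dashed lines at 1.5-fold. The grey cloud narrows toward bright signals, and the bright Igfbp4 and Igfbp5 points lie at its lower edge.

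The remaining binding proteins had differences under 1.5-fold. Igfbp6, whose protein prefers IGF2 to IGF1, read 9.41 in the wildtype and 9.06 in the knock-out, a difference of -0.35 (1.28-fold). For Igfbp3, the main carrier of IGFs in blood, 1423062_at read 7.32 and 7.03 and 1458268_s_at 7.21 and 6.99. Both Igfbp3 probe sets were thus lower on the knock-out array, by -0.29 and -0.21, and stayed lower under the 3 other scalings, where the differences shrank to as little as -0.18 and -0.10.

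Igfbp2 and Igfbp7 had similar signal on both arrays. Igfbp2, a binding protein abundant in embryos, read 10.15 in the wildtype and 10.22 in the knock-out. Igfbp7, a low-affinity family member deposited around vessels and in matrix, was the brightest of the 25 probe sets at 1423584_at, with 13.71 and 13.75. That is a difference of 0.04. Its other probe sets read 8.10 and 7.94 (1423585_at, -0.16) and 6.98 and 7.07 (1437804_at, 0.08), so the 3 went in both directions and none exceeded 1.12-fold. Igfbp1, a liver product that insulin represses, read 3.08 and 3.28, below the floor on both arrays, so no fold is given.

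Some members lie side by side in the genome. Igfbp2 and Igfbp5 are neighbours on chromosome 1, and Igfbp1 and Igfbp3 on chromosome 11, with 0 protein-coding genes between the partners of each pair in RefSeq. Igfbp2 differed by 0.07, and the Igfbp5 probe sets by -0.83 and 0.23, the brighter of which was lower and the dimmer higher, like Igfbp2. Igfbp1 gave no difference to set beside those of Igfbp3, since it was below the floor. Igfbp4 is also on chromosome 11.

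The wider pathway was compared through 7 lists, with each gene represented by its brightest probe set. Outside the 9 members the lists hold 71 genes, of which 66 were analysed and 59 were measured on both arrays. At least 1.5-fold lower was 1 gene, Ccn5, and at least 1.5-fold higher was 1, Ins2, beside 1.61% and 0.832% of all 11294 measured genes. Of the 59 genes, 42 were lower on the knock-out array, with a median of -0.11, where 59.8% of all measured genes were lower with a median of -0.05. After quantile normalization 33 of the 59 (55.9%) were lower and their median was -0.02, beside 44.8% and a median of 0.02 for all genes under that scaling.

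The other ligands and receptors of the system differed little, with 2 of 4 measured genes lower and a median of -0.01. Igf2, the fetal growth factor expressed from the paternal allele, read 13.75 in the wildtype and 13.79 in the knock-out, and its dimmer probe set differed by -0.34. Igf2r, the receptor that clears IGF2 from outside the cell, read 11.27 and 11.21. Insr, the insulin receptor, read 7.99 and 7.77. Ins2, an insulin gene of pancreatic beta cells, read 6.21 and 6.96, which is 1.68-fold higher. That came from 1 probe set whose suffix marks possible cross-hybridization, it was under a floor set at the 75th percentile, and it fell short of 1.5-fold once 64 was added to linear values. Insrr, an orphan receptor of the insulin receptor family, was below the floor on both arrays.

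Genes whose products act on the binding proteins had no member past 1.5-fold, where 1.61% of all measured genes were past it lower and 0.832% higher. Pappa, the protease that cuts IGFBP4 and IGFBP5, read 10.93 on both arrays, and its other measured probe set differed by -0.09. Htra1, a secreted serine protease that itself has an IGFBP-type domain, read 11.64 in the wildtype and 11.31 in the knock-out (-0.33), with its other probe set at -0.18. Igfals, the acid-labile subunit that holds IGF complexes in blood, read 5.70 and 6.11, a difference of 0.41 close to the floor. Stc2, the stanniocalcin that blocks PAPP-A, differed by -0.10, and its 3 measured probe sets lay between -0.13 and 0.17. In all 4 of 6 measured genes were lower, beside 59.8% of all measured genes. Their median was -0.03 and turned to 0.03 or 0.04 under the 3 other scalings.

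Proteins with an IGFBP-type domain outside the family included the one list gene past 1.5-fold in the lower direction. Ccn5, a matricellular protein of the CCN family, read 9.07 in the wildtype and 7.61 in the knock-out, which is 2.76-fold lower from 1 probe set. Its relatives Ccn4 and Ccn1 differed by -0.30 and 0.13, and Kazald1 by -0.31. The 7 measured genes had a median of -0.30, with 5 of them lower. Without a floor, which lets dim genes in, that median was 0.035, and a floor at the 40th percentile gave -0.015. Of the Igf2 mRNA-binding proteins, Igf2bp1 differed by 0.38 and Igf2bp3 by -0.01, and other probe sets of each went the other way.

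By their brightest probe sets, genes of the cascade inside the cell showed small differences. Of 24 measured genes of the PI3K-Akt-mTOR pathway 20 were lower on the knock-out array, with a median of -0.14, and 0 passed 1.5-fold. Over all measured genes 59.8% were lower, with 1.61% at least 1.5-fold lower and 0.832% at least 1.5-fold higher. Foxo1, a transcription factor that Akt keeps out of the nucleus, had the largest difference at -0.34, and its 3 measured probe sets lay between -0.49 and -0.26. Akt1 differed by -0.28, with its other probe sets between -0.45 and 0.25, and Rictor, a subunit of the kinase complex mTORC2, by -0.28. After quantile normalization 17 of the 24 (70.8%) were lower with a median of -0.05, where 44.8% of all genes were lower. The receptor substrates and adaptors had 4 of 9 lower and a median of 0.06, with Irs1, the main docking protein of the receptor, at 0.18 and the adaptor Shc1 at -0.45, whose other probe set was at 0.09. The adaptor Grb10 differed by -0.04 at its brightest probe set and by -0.59, just past 1.5-fold, at its other measured one.

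Genes known to be induced by FOXO factors were lower at 9 of 10 measured genes, with a median of -0.20. Of all measured genes 59.8% were lower, with a median of -0.05. Fbxo32, a ubiquitin ligase subunit, read 8.72 in the wildtype and 8.23 in the knock-out, and its 3 probe sets differed by -0.82 to -0.50. Cdkn1b, the cell-cycle inhibitor p27, differed by -0.40 and Sesn3, a stress-induced inhibitor of mTORC1, by -0.30. By their brightest probe sets 0 of the 10 passed 1.5-fold, where 1.61% of all measured genes were past it lower and 0.832% higher. Under the 3 other scalings 8 of the 10 were lower and the median was -0.14 to -0.10. Of all genes 44.8% to 47.6% were lower under those scalings.

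**Figure D4:**
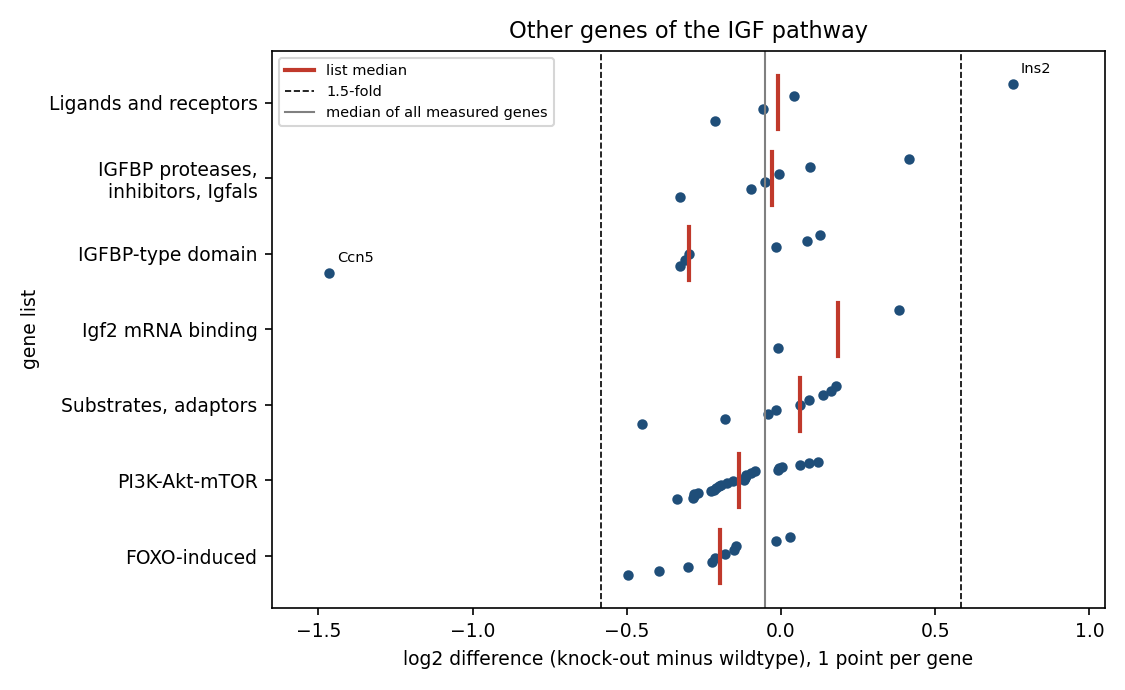
Log2 difference, knock-out minus wildtype (x axis), of each measured gene outside the 9 members in 7 lists of the pathway (y axis), by its brightest probe set, with list medians in red. Most genes lie between the dashed lines of 1.5-fold, with Ccn5 (-1.47) and Ins2 (0.75) outside them.

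Markers of cell types moved with the arrays as well. Their summed linear signals cover every gene of a list on the array, those below the floor included, while medians cover the genes measured on both arrays. Of all measured genes 59.8% were lower on the knock-out array, with a median of -0.05. The fibroblast list was measured in full, and 8 of its 10 genes were lower on the knock-out array with a median of -0.36. Vim and Lum were higher, by 0.05 and 0.12. Col1a1, a chain of type I collagen, and Pdgfra, a receptor of mesenchymal cells, were 1.93-fold and 1.66-fold lower by their brightest probe sets. The other measured Col1a1 probe set differed by -0.33, which is under 1.5-fold. Col1a2 and Fn1 differed by -0.15 and -0.10 at their brightest probe sets, and by -1.37 and -0.77 at their lowest ones. The list's summed linear signal was 96354 in the wildtype and 83946 in the knock-out. Most fibroblast markers thus shifted in the same direction as Igfbp4, and the part of fibroblasts in its difference was not tested. Of 9 macrophage and leukocyte markers, all measured, 7 were lower (median -0.42, summed signal 3773 and 3014, Mrc1 at -0.59), and their part was not tested. Csf1r and Cd14 were higher, by 0.07 and 0.16. Lcp1 differed by -0.42 at its brightest probe set and by 0.42 at its other measured one.

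The measured endothelial and epithelial markers went the other way. Of 7 endothelial markers 3 were measured, all higher (median 0.47, summed signal 570.2 and 929.8), while Pecam1, Cdh5, Tie1 and Tek were below the floor on both arrays. Emcn, at its 1 measured probe set, differed by 1.47 and made up most of the rise in the summed signal. Kdr differed by 0.47, and Eng was nearly equal at 0.03. Of 7 epithelial markers 5 were measured on both arrays, all higher (median 0.47, summed signal 926.5 and 1195, Cldn4 at 1.13), with Cdh1 below the floor on both. Neural markers were measured at 6 of 6, with 4 higher (median 0.30, summed signal 2020 and 2403, Gap43 at 0.86). The neuronal markers Tubb3 and Stmn2 were lower, by -0.32 and -0.34. The medians of these lists lay in the direction opposite to Igfbp4, and the part of these cell types was not tested. Skeletal muscle markers had 2 of 4 measured genes lower (median -0.07, summed signal 525.9 and 555.3), with Myod1 and Myog below the floor. Mylpf and Myl1 differed by -0.60 and -0.47, and Des and Ckm by 0.44 and 0.32. Cartilage and bone had 2 measured genes, both lower (median -0.34, summed signal 1317 and 1062), and adipocyte markers had 1 of 3 lower (median 0.12, summed signal 387.9 and 413.5), with Adipoq below the floor.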

How the data were processed

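Gene expression was measured on 2 Affymetrix arrays, 1 per genotype, from 100 ng of total RNA each, per the labels' protocols. The deposited table holds 1 value for each probe set on each array, taken here as log2 signals. How the authors summarized and normalized them, with which software and genome build, was not given in the sources used here. Their scale was checked on the values. With 2 as the base, 4.68% and 4.72% of the back-calculated linear values below 1000 on the 2 arrays shared one remainder to a multiple of 0.5 (within bins of 0.002), where an even spread gives 0.4%.

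Probe sets were named from the platform annotation, updated by gene identifier through RefSeq (GRCm38.p6). Differences were computed in Python 3.11.15 with pandas 2.3.3. Probe sets with several symbols or none and 64 controls were kept out of gene results, and a gene in a list was represented by its brightest probe set. The genes, lists and sizes were chosen with earlier results of these data known. Every member was to be named, with list genes past 1.5-fold and up to 3 others with the largest differences. Genes were not ranked by likeness of pattern, since 2 arrays give none. No protein sequences were used here. The alternatives were median centring, quantile normalization, loess centring (span 0.3), other floors, 16 or 64 added to linear values, sizes of 1.25-fold and 2-fold, probe set types, and gene averages. Counts without Igfbp4, with 1 probe set per gene and of genes with every probe set past 1.5-fold were chosen after seeing the data.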

Additional observations from a re-analysis of the deposited data

How the results depend on the processing

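No paired analysis was possible because there is only 1 array of either genotype, and this small number limits the precision. The 7 probe sets at least 1.5-fold lower became 6 with the median difference set to 0, 5 after quantile normalization and 5 after loess centring, and none was at least 1.5-fold higher in any of these. Over all measured probe sets the split of calls moved from 555 lower and 156 higher (78.1% lower) to 374 and 247 (60.2%), 353 and 275 (56.2%), and 405 and 228 (63.98%). The count was 3, all of Igfbp4, without probe sets ending in _x_at and _s_at, and 0 at a size of 2-fold. The former setting leaves fewer probe sets and drops the brighter one of Igfbp5. Shares over all probe sets under those settings are not given here. Without Igfbp4 the count was 1 of 18 probe sets, beside 2.57% of all measured probe sets. With 1 probe set per gene it was 2 of 8 genes, beside 1.61% of all measured genes. The median of the members was between -0.35 and -0.13 in every alternative run. In the lists, genes of IGF ligands and receptors past 1.5-fold went from 1 to 0 with the floor at the 75th percentile, with 64 added to linear values and without _x_at and _s_at probe sets. Those with an IGFBP-type domain went from 1 to 0 with the floor at the 75th percentile, and their median was 0.035 without a floor and -0.015 under one at the 40th percentile. Genes induced by FOXO factors past 1.5-fold went from 0 to 1 when a gene was represented by the mean over measured probe sets or by the median over all of them. The cause of these shifts was not tested. No called probe set turned its sign.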
